A study of Homo sapiens with 32 samples.

Results

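The respiratory chain module comprised genes encoding subunits of complexes I to V of mitochondrial oxidative phosphorylation, in human granulosa cells exposed to perfluorooctane sulfonate (PFOS). Members were chosen by symbol: MT-ND, MT-CO, MT-CYB and MT-ATP for the mitochondrial genome, and NDUFA, NDUFB, NDUFC, NDUFS, NDUFV, SDHA to SDHD, UQCR, COX4 to COX8 and ATP5 for the nuclear genome, with the NDUFAF assembly factors left out. The rule found 109 rows of the deposited tables, of which 101 had values. Cytochrome b is spelled MT-CYTB in the tables and was added by its gene ID, which gave 102 members of 18583 rows with values. Of these members 13 lie on the mitochondrial genome (7 in complex I, 1 in complex III, 3 in complex IV, 2 in complex V) and 89 on nuclear chromosomes (40, 4, 9, 16 and 20 in complexes I to V). The 8 rows without values were COX7B2, the pseudogene UQCRBP1 and 6 divergent or antisense transcripts (NDUFA6-DT, NDUFB2-AS1, NDUFV1-DT, NDUFV2-AS1, UQCRB-AS1 and UQCRFS1-DT).

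The cells were HGrC1, an immortalized line of non-luteinized human granulosa cells, the somatic cells that surround the oocyte and make estradiol. Flasks from 4 separately thawed vials were each divided between vehicle (0.05% DMSO) and PFOS, a persistent fluorinated surfactant renewed at every passage, at 1, 0.1 or 0.01 µM, and RNA was taken after 6 and 12 weeks. This gave 8 groups of 4 libraries, 32 in all, and replicate numbers 1 to 4 were taken to name the vial. All groups were cultured with serum and an added steroid, given as estradiol in the sample labels and as testosterone in the study's methods. Every replicate is a vial of the same line, so the spread between libraries is that of cultures and not of donors.

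The respiratory chain passes electrons from NADH (complex I) and succinate (complex II) through complexes III and IV to oxygen, and the proton gradient it builds drives ATP synthesis by complex V. Complex II is made wholly from nuclear genes, while the other complexes join nuclear subunits to a core encoded in mitochondrial DNA, which is transcribed from both strands as long precursors and cut at the tRNAs. In granulosa cells mitochondria also house the first step of steroid synthesis.

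Total expected counts per library ranged from 17907057 to 18553350. Of the 13 granulosa markers listed, 12 had values and 9 had a median of at least 10 counts: WT1 and GJA1 were abundant, FOXL2 had 10 to 37 counts per library, CYP19A1 (aromatase) was at 0 in 31 of the 32 libraries, and FSHR had no values. Of the other lists, the oocyte genes BMP15 and DDX4 were at 0 in all 32 libraries and GDF9 had 2 to 9 counts, but ZP3 had 321 to 527 in every library. CYP17A1 (theca) was at 0 in 27 libraries and INSL3 had 0 to 5 counts. CD68 (leukocytes) had 243 to 497 counts in every library, where PTPRC had at most 8. PECAM1 (endothelium) had at most 25 counts and CDH5 3 to 15. At 6 weeks, liver transcripts separated the libraries in the way that is described beside the mitochondrial results.

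MT-ATP8 and MT-ND4L, the shortest mitochondrial members, share bases with their neighbours, so reads there cannot be given to 1 gene alone. Both overlaps are shown because MT-ATP8 had the largest fitted PFOS difference of the mitochondrial members, on few counts. MT-ATP8 lies on the mitochondrial chromosome at chrM:8366-8572 (GRCh38, plus strand). It is 207 bases long, and the last 46 (chrM:8527-8572, in capitals) are also the start of MT-ATP6, which is 22.2% of MT-ATP8. The end of MT-ND4L and the start of MT-ND4 share 7 bases (chrM:10760-10766, in capitals) within the window chrM:10740-10786.
MT-ATP8: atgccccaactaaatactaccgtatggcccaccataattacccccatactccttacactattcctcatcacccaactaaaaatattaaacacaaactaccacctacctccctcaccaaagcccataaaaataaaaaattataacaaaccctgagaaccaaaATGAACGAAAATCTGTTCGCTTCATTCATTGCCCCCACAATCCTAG
MT-ND4L/MT-ND4: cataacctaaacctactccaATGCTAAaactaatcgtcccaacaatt

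Levels differed between the genomes by orders of magnitude. TPM, a level per effective length scaled to the library, averaged over 32 libraries was 3950 for MT-ND5 and 26436 for MT-COX2, core subunits of complexes I and IV, and 12 of the 13 mitochondrial members lay at or above the first value, MT-ATP8 and MT-ND4L included. The exception was MT-ND6, the only member on the light strand, at 70.8 TPM and 0.023% of mitochondrial counts. The TPM of MT-ATP8 (13241) and MT-ND4L (21220.4) are uncertain because their effective lengths are very short, and MT-ATP8 held only 0.111% of mitochondrial counts. By counts, MT-COX1 (22.9%), MT-ND4 (13.99%), MT-COX2 (13.8%) and MT-CYTB (10.6%) made up most of the mitochondrial RNA. In the 6-week controls the mitochondrial members held 4.94% ± 0.10 (SD, n = 4) of all counts and the nuclear members 0.862% ± 0.025.

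Among tested nuclear members the median mean TPM was 201 in complex I, 133 in complex II, 133 in complex III, 453 in complex IV and 324 in complex V. The highest were NDUFS5 (876 TPM), SDHC (184), UQCRH (521), COX8A (1231) and ATP5ME (1369), though the last is very short. The lowest were NDUFV3 (10.1), SDHA (119), UQCRB (22.5), COX6B2 (0.85) and the read-through ATP5MF-PTCD1 (0.075). Subunits with tissue-restricted paralogs were represented by the ubiquitous form. COX4I1 stood at 811 TPM against 0 for COX4I2, COX6A1 at 1089 against 1.71 for COX6A2, COX7A2 at 809.9 against 0.094 for COX7A1, and COX8A at 1231 against 0.009 for COX8C. COX6B1 stood at 702 TPM, where COX6B2, the testis form, stood at 0.85.
NDUFA4, which the symbol rule places in complex I although it is a subunit of complex IV, stood at 80.5 TPM and its paralog NDUFA4L2 at 0.42. UQCRH, the hinge protein of complex III, stood at 521 TPM and its near-identical retrocopy UQCRHL at 0.502, where reads can be split between copies. The 3 genes for the c-ring subunit of ATP synthase, which differ mainly in the part removed on import, stood at 376 (ATP5MC1), 880.3 (ATP5MC2) and 92.5 (ATP5MC3) TPM. NDUFC2 stood at 65.5 TPM and the read-through NDUFC2-KCTD14 at 26.2, which share exons.

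**Figure D1:**
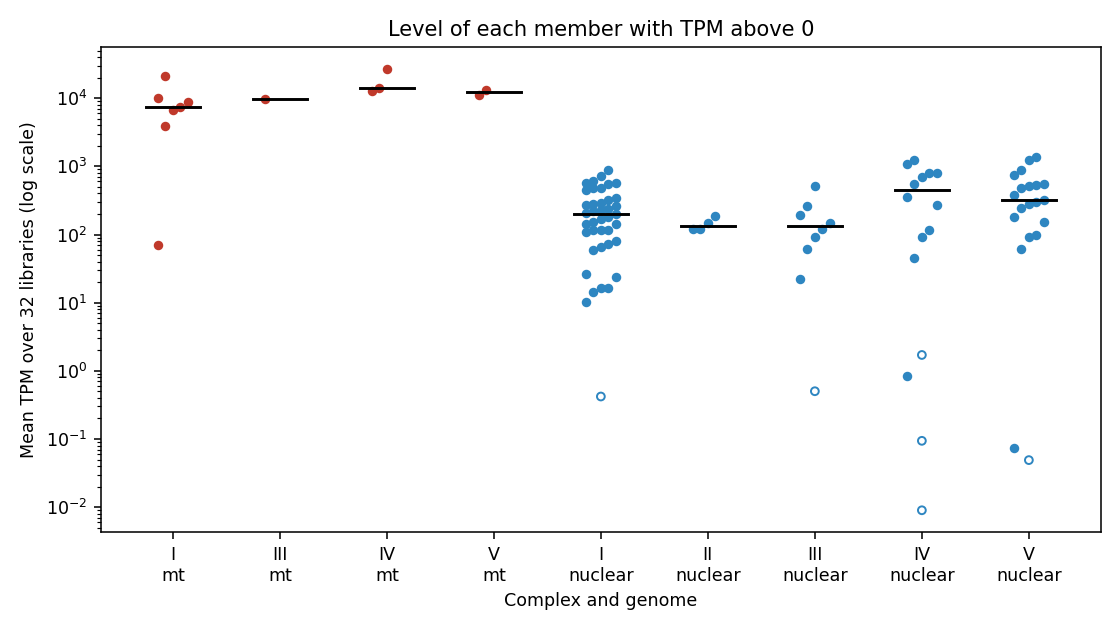
Mean TPM over 32 libraries (log scale) of each member with a value above 0, by complex and genome (mt, mitochondrial). Filled points passed the filter on low counts, open points did not, and lines are medians of the filled points; 12 of 13 mitochondrial members lie above every nuclear member, among them MT-ATP8 and MT-ND4L, whose TPM are uncertain.

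Around the nuclear members' start sites, 1 short motif was looked for on both strands of the RefSeq promoters (GRCh38.p14, 250 bases before to 50 after the start), which 72 of the 89 nuclear members matched. CCGGAAG, an ETS core of the kind bound by GABPA, a regulator of nuclear respiratory genes, was in 20 of 72 (27.8%) against 10.7% of all 27305 promoters. The 27305 promoters were not limited to genes expressed in these cells. A match describes the promoter's letters and is not a site.

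The first question was whether PFOS changed the mitochondrial messages at 6 weeks. At 0.1 and 1 µM, 12 of 13 mitochondrial members had higher fitted values than control, with a median log2 fold change of 0.31 and 0.34, and MT-CYTB passed the test at both concentrations. At 0.01 µM, 10 of 13 lay slightly below control and none passed the test. The controls are shared by the 3 comparisons, so their values are given side by side and not as support of one another. Each comparison was tested by edgeR's quasi-likelihood test, and a gene was called when its Benjamini-Hochberg adjusted p over all genes tested was at or under 0.05.
The share of all counts on mitochondrial members was 4.80, 4.99, 5.04 and 4.93% in control replicates 1 to 4. It was 4.74, 4.97, 5.41 and 4.48% at 0.01 µM, 5.52, 5.66, 6.10 and 6.71% at 0.1 µM, and 5.94, 5.68, 5.56 and 6.77% at 1 µM. Every library at 0.1 and 1 µM lay above every control, while 0.01 µM overlapped the controls. The nuclear members' share overlapped between all 6-week groups, at 0.862% ± 0.025 in control, 0.873% ± 0.012 at 0.01 µM, 0.857% ± 0.015 at 0.1 µM and 0.867% ± 0.009 at 1 µM (SD, n = 4). In bulk libraries, fewer cells of a type and less RNA per cell cannot be told apart.

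**Figure D2:**
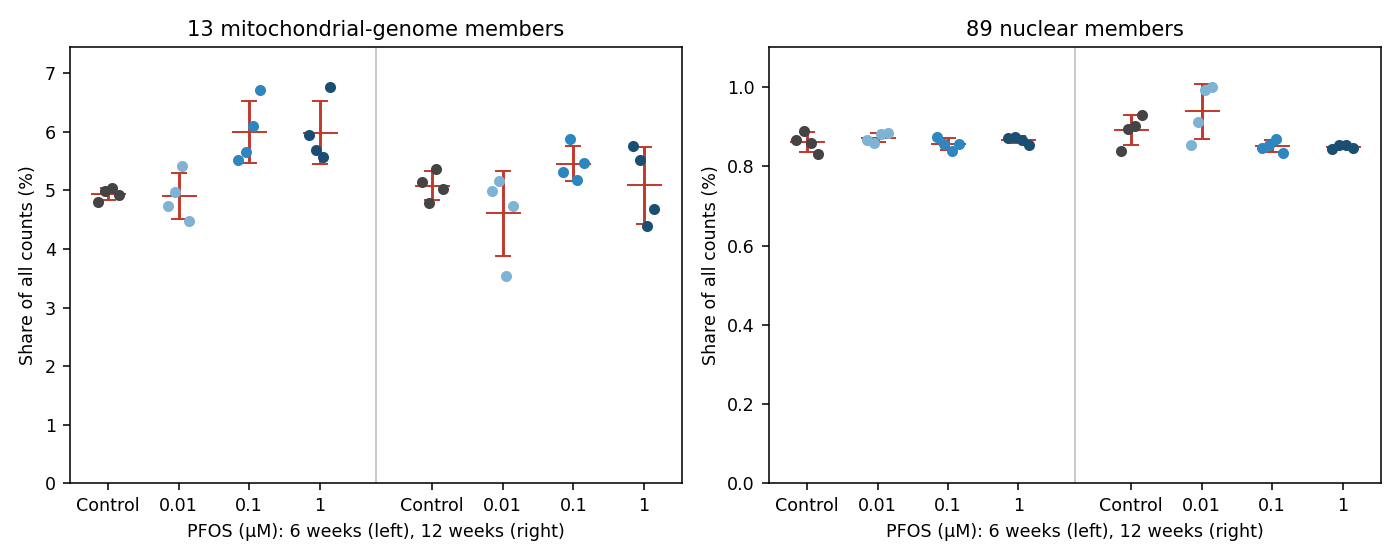
Share of all counts (%) held by the 13 mitochondrial and the 89 nuclear members in each library, by PFOS concentration, with 6 weeks left and 12 weeks right of the grey line. Points are libraries and red bars the mean ± SD (n = 4); at 6 weeks the 8 libraries at 0.1 and 1 µM lie at 5.52% or more and the controls at 5.04% or less.

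At 0.1 µM after 6 weeks, 3 members were called, all mitochondrial and all higher, where 4.24% of all 12836 genes tested were called in either direction and 1.55% were higher. They were MT-CYTB, MT-COX1 and MT-ND3. At 1 µM only MT-CYTB was called among members, where 0.28% of genes were called and 0.132% were higher. By this test no member reached a 2-fold change and the adjusted p threshold together in any PFOS comparison. By DESeq2 on the same 16 libraries MT-ATP8 did at 1 µM after 6 weeks (log2 fold change 1.64, DESeq2 adjusted p = 0.000412).
MT-CYTB (chrM:14747-15887) encodes cytochrome b, the mitochondrial subunit of complex III. Its CPM (counts scaled to library size and composition) was 4979.8, 5357, 5158 and 4948 in control replicates 1 to 4. It was 5008, 5000.4, 5633 and 4873 at 0.01 µM, 5852, 6301, 6464 and 7045 at 0.1 µM, and 6424, 6381, 5989 and 7067 at 1 µM. All 8 libraries at 0.1 and 1 µM lay above the 4 controls and the 0.01 µM libraries overlapped them. The log2 fold change was 0.33 (SE 0.06, edgeR adjusted p = 0.00453) at 0.1 µM, a 1.25-fold rise, and 0.34 (SE 0.06, edgeR adjusted p = 0.00439) at 1 µM, a 1.26-fold rise. At 0.01 µM the log2 difference was 0.01 (edgeR adjusted p = 0.988). The call was kept without each replicate in turn (edgeR adjusted p from 0.0114 to 0.0227 at 0.1 µM and from 0.00453 to 0.0339 at 1 µM), but not when all 32 libraries shared 1 estimate of the spread (edgeR adjusted p = 0.0723 at 0.1 µM and 0.219 at 1 µM).
MT-COX1 (chrM:5904-7445) encodes the catalytic subunit of cytochrome c oxidase, complex IV. Its CPM in replicates 1 to 4 was 10946, 11146, 11580.3 and 11565 in control, 12459, 12282, 13772 and 14784 at 0.1 µM, and 12959, 12424, 12617 and 14520.3 at 1 µM. Neither exposed group overlapped the controls. Its log2 fold change was 0.23 at 0.1 µM (SE 0.06, edgeR adjusted p = 0.0394) and 0.21 at 1 µM (SE 0.06, edgeR adjusted p = 0.134). With the vial as a replicate block, the 1 µM value passed (log2 fold change 0.21, edgeR adjusted p = 0.0435) and 2 members were called there in place of 1.
MT-ND3 (chrM:10059-10404) encodes a core membrane subunit of complex I. Its CPM was 363, 369, 388 and 352 in control, 451, 442, 543 and 519.9 at 0.1 µM, and 445, 429, 471 and 371 at 1 µM. Groups were apart at 0.1 µM and overlapped at 1 µM through replicate 4. The log2 fold change was 0.41 at 0.1 µM (SE 0.10, edgeR adjusted p = 0.0448) and 0.22 at 1 µM (SE 0.10, edgeR adjusted p = 0.368). The 0.1 µM calls of MT-COX1 and MT-ND3 were lost when any 1 replicate was left out, with edgeR adjusted p from 0.0537 to 0.134 for MT-COX1 and from 0.0558 to 0.2 for MT-ND3.

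The other mitochondrial members did not pass the test but mostly stood apart from the controls. At 0.1 µM, 9 of 13 had all 4 exposed libraries above all 4 controls (MT-ND1, MT-ND3, MT-ND4, MT-ND5, MT-CYTB, MT-COX1, MT-COX2, MT-ATP6 and MT-ATP8), a separation found in 5.89% of all genes tested. At 1 µM, 9 of 13 did, with MT-ND4L in place of MT-ND3, against 3.24% of genes. The exact two-sided permutation p of each such member was 0.0286, the smallest that 4 libraries against 4 can give. Groups that do not overlap always give this value, so it adds nothing to the separation itself.
DESeq2 on the same 16 libraries called 7 members at each concentration, all mitochondrial and all higher, where it called 5.09% of 12070 genes at 0.1 µM and 2.05% of 5801 genes at 1 µM. These are the genes to which it gave an adjusted p, which at 1 µM left out MT-ND6. At 0.1 µM these were MT-ND1, MT-ND3, MT-ND5, MT-CYTB, MT-COX1, MT-COX2 and MT-ATP6. At 1 µM they were MT-ND1, MT-ND4L, MT-ND5, MT-CYTB, MT-COX1, MT-ATP6 and MT-ATP8.
For the mitochondrial members of complex I other than MT-ND3 and MT-ND6, log2 differences by edgeR ranged from 0.16 (MT-ND2) to 0.35 (MT-ND4) at 0.1 µM and from 0.19 (MT-ND2) to 0.41 (MT-ND4) at 1 µM. In complex IV, MT-COX2 was at 0.28 and 0.21 and MT-COX3 at 0.13 and 0.08. In complex V, MT-ATP6, the proton channel subunit, was at 0.36 (edgeR adjusted p = 0.0575) and 0.42 (edgeR adjusted p = 0.0996). Its CPM in replicates 1 to 4 was 2522, 2802, 2752 and 2701 in control, 2998, 3408, 3720.4 and 3722 at 0.1 µM, and 3586, 3322, 3232 and 4239.9 at 1 µM, with no overlap.

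**Figure D3:**
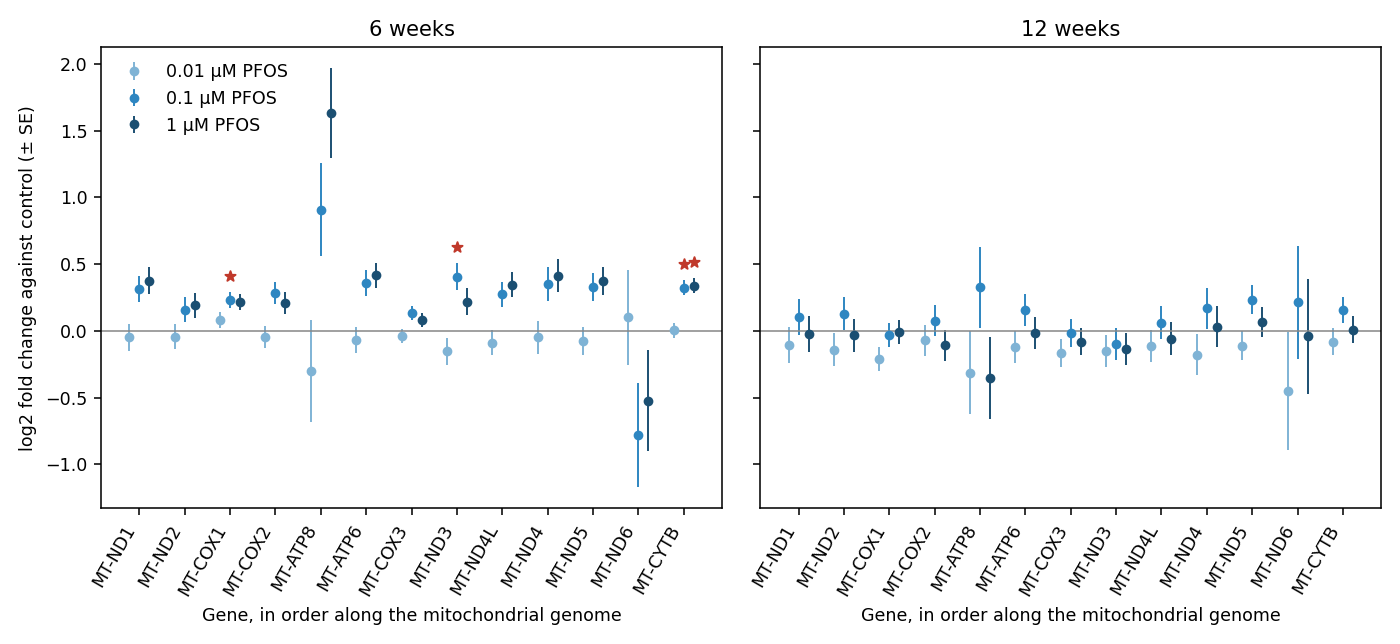
Fitted log2 fold change against control (± SE) of the 13 mitochondrial members at 6 and 12 weeks, in order along the genome, at 0.01, 0.1 and 1 µM PFOS. Red stars mark edgeR adjusted p at or under 0.05 (4 values, all at 6 weeks); at 6 weeks all members but MT-ND6 lie above 0 at 0.1 and 1 µM, and at 12 weeks most error bars reach 0.

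MT-ATP8, an accessory subunit of ATP synthase that shares the bases printed above with MT-ATP6, was low and variable. Its CPM was 26.0, 50.4, 26.2 and 25.6 in control, 26.5, 21.2, 39.4 and 17.0 at 0.01 µM, 52.0, 52.7, 61.2 and 75.6 at 0.1 µM, and 76.9, 69.1, 88.2 and 164 at 1 µM. Control replicate 2 stood apart from the other controls and just under the lowest library at 0.1 µM. The log2 difference was 0.91 at 0.1 µM (SE 0.35, edgeR adjusted p = 0.160) and 1.63 at 1 µM (SE 0.33, edgeR adjusted p = 0.0752). Without replicate 2 the 1 µM value passed (2.08, edgeR adjusted p = 0.0429). With the neighbour's shared bases, how much of these counts belongs to MT-ATP6 was not tested.
MT-ND6, a complex I subunit whose message is read from the other strand and lacks a poly(A) tail, went the other way with wide error. Its CPM was 9.90, 7.84, 20.1 and 23.7 in control, 5.86, 11.4, 7.71 and 10.8 at 0.1 µM, and 8.58, 5.79, 14.8 and 13.6 at 1 µM. The groups overlapped, and the log2 difference was -0.78 (SE 0.39, edgeR adjusted p = 0.280) and -0.52 (SE 0.38, edgeR adjusted p = 0.591).

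**Figure D4:**
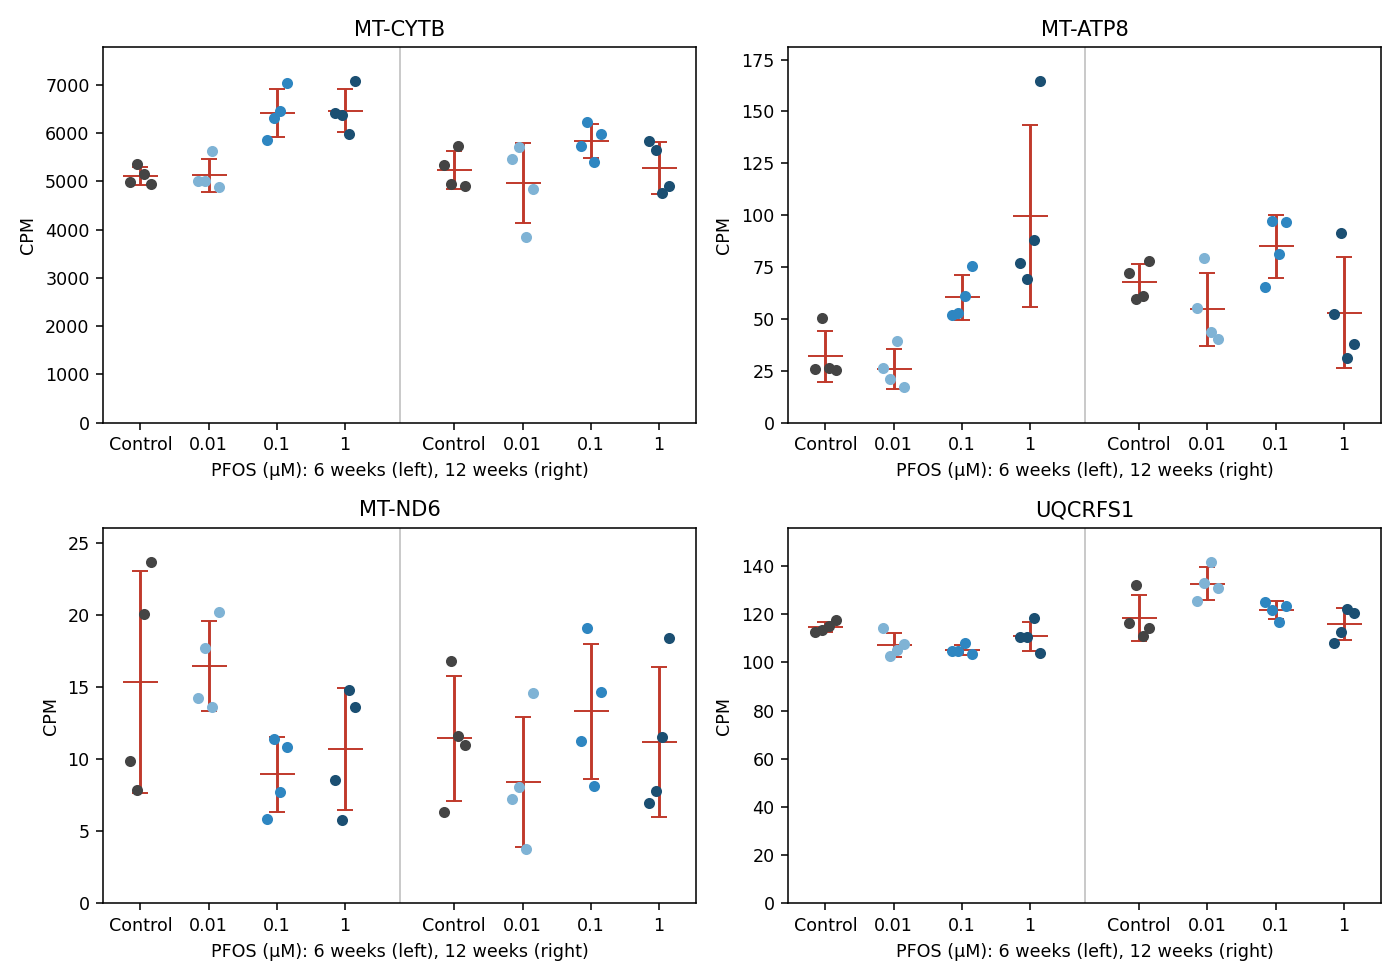
CPM of MT-CYTB, MT-ATP8, MT-ND6 and UQCRFS1 in each library by PFOS concentration, with 6 weeks left and 12 weeks right of the grey line; points are libraries and red bars the mean ± SD (n = 4). At 6 weeks MT-CYTB lies at 5852 or more at 0.1 and 1 µM and at 5357 or less in control, while MT-ND6 overlaps in every group.

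The median log2 fold change over the 13 mitochondrial members was 0.31 at 0.1 µM and 0.34 at 1 µM, where the median of all genes tested was 0.00 in both, and -0.05 at 0.01 µM. By vial, the median difference from the same vial's control was 0.25, 0.21, 0.29 and 0.46 at 0.1 µM and 0.37, 0.21, 0.16 and 0.42 at 1 µM, all above 0.
Part of the liver list moved with these groups. All 10 listed genes had values, and their summed counts were 214 to 312 in control and 252 to 326 at 0.01 µM, against 397 to 497 at 0.1 µM and 387 to 451 at 1 µM. ALB (albumin) had 1 count over the 4 control libraries and 0 at 0.01 µM, against 167 at 0.1 µM and 151 at 1 µM, and AFP had 0, 0, 102 and 86. AHSG, APOB, AMBP and TTR were at 0 in both the control and the 0.01 µM group. They held 120, 56, 18 and 2 counts at 0.1 µM and 91, 62, 15 and 1 at 1 µM. FGB was at 0 in every 6-week group, and GPC3 had 1, 1, 26 and 15. Most counts of the list belonged to SERPINA1 (760, 836, 916 and 924) and APOA1 (240, 334, 398 and 324), which were present in every group. At 12 weeks, where every group held ALB (145 to 367 counts over 4 libraries), the mitochondrial share of the controls was 4.79 to 5.38%. Control replicate 3 at 12 weeks held 1425 counts of the list, the most of any library, and without it 0 members were still called at 12 weeks. Summed counts of the leukocyte list, nearly all of them CD68, were 352 to 411 in the 6-week controls, 407 to 447 at 0.01 µM, 417 to 502 at 0.1 µM and 393 to 482 at 1 µM, so that only 0.1 µM did not overlap the controls. The part of either list in the mitochondrial values was not tested.

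No nuclear subunit was called at 6 weeks. Of 89 nuclear members, 82 passed the filter on low counts, and 0 were called at any concentration by edgeR. DESeq2 called 0 of the 88, 80 and 76 nuclear members to which it gave an adjusted p at 0.01, 0.1 and 1 µM, and at 0.01 µM it called 0.00588% of 17020 genes. NDUFA4L2, UQCRHL, COX4I2, COX6A2, COX7A1, COX8C and ATP5MGL did not pass the filter. At 0.01 µM, where 0.0% of genes were called, 6 members had an unadjusted p under 0.05 by edgeR, all of them nuclear, as did 9.6% of all genes. At 0.1 and 1 µM, 17 and 14 members did, 6 and 5 of them nuclear, against 20.8% and 13.7% of genes.
Their median log2 difference was 0.02 at 0.01 µM, -0.01 at 0.1 µM and 0.01 at 1 µM. By complex, medians at 0.1 µM were 0.00 in complex I, -0.02 in complex II, -0.02 in complex III, 0.00 in complex IV and -0.03 in complex V. At 1 µM they were 0.02, 0.02, -0.02, 0.03 and 0.01.
The 3 lowest unadjusted p at 0.1 µM belonged to UQCRFS1 (the Rieske iron-sulfur protein of complex III), UQCRC1 (a core protein of complex III) and NDUFA1 (complex I). UQCRFS1 (chr19:29205320-29213151, minus strand) stood at 113, 114, 115 and 118 CPM in control and at 105, 105, 108 and 103 at 0.1 µM. It lay below every control, with a log2 difference of -0.13 (SE 0.04, edgeR adjusted p = 0.0575), and it was called when the vial was a replicate block, which raised the members called from 3 to 4. UQCRC1 was the only other nuclear member wholly below the controls at 0.1 µM (-0.10, edgeR adjusted p = 0.0833), where 6.31% of all genes were. NDUFA1 was at 0.13 (edgeR adjusted p = 0.142).
At 1 µM the lowest were ATP5IF1 (0.14), the inhibitor of ATP synthase, NDUFB1 (0.20) and COX7C (0.13), with edgeR adjusted p of 0.182, 0.198 and 0.227. ATP5PF, a peripheral stalk subunit of complex V, was the 1 of 82 nuclear members wholly above the controls, where 3.24% of all genes were. At 0.01 µM the lowest were UQCRFS1 (-0.09), NDUFV1 (0.07), which binds the flavin of complex I, and NDUFA11 (0.08), each with edgeR adjusted p = 0.462. There 4 of 82 lay wholly above the controls (NDUFA11, NDUFS8, NDUFV1 and COX6B1), where 2.07% of all genes did. ATP5MF-PTCD1, at 0 in all controls and at 0 to 29 counts elsewhere, gave a fitted value that was not interpretable.

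Among other genes of the pathway at 6 weeks, 3 were called, all at 0.1 µM, where 4.24% of all genes tested were called. The shares called were 2.13% of assembly factors and 6.25% of genes of mitochondrial transcription and RNA handling. Of 47 assembly factors, LYRM7, a chaperone of the Rieske protein, was higher (0.22, SE 0.06, edgeR adjusted p = 0.0431). Of 32 tested genes of mitochondrial transcription and RNA handling, TBRG4, which stabilizes mitochondrial messages, was lower (-0.20, SE 0.04, edgeR adjusted p = 0.0159), as was ELAC2, which trims the 3′ ends of tRNAs (-0.15, SE 0.04, edgeR adjusted p = 0.0314). The median of that list was -0.06 at 0.1 µM and -0.01 at 1 µM. Neither of the 2 genes listed as electron carriers (CYC1, CYCS) nor any of 8 tested regulators of nuclear subunits was called at 6 weeks. CYC1 encodes cytochrome c1, a subunit of complex III that the symbol rule did not take in.

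At 12 weeks no member was called against control at any concentration by edgeR or DESeq2 on 16 libraries, where 0.0% (0.01 µM), 1.07% (0.1 µM) and 0.22% (1 µM) of 12742 genes were called by edgeR. DESeq2 called 0.0% of 16896, 2.24% of 12636 and 0.679% of 12964 genes. At an unadjusted p under 0.05 by edgeR there were 13, 22 and 16 of 95 members, against 8.48%, 15.4% and 8.75% of genes. The mitochondrial share was 5.14, 4.79, 5.38 and 5.02% in control, 4.99, 5.16, 3.54 and 4.74% at 0.01 µM, 5.32, 5.88, 5.18 and 5.46% at 0.1 µM, and 5.75, 5.52, 4.40 and 4.68% at 1 µM. All groups overlapped the controls, and replicate 3 at 0.01 µM was the lowest of the 32 libraries.
Medians over the mitochondrial members were -0.14, 0.13 and -0.03 at 0.01, 0.1 and 1 µM. At 0.01 µM the median rested on replicate 3 (0.0006 without it), and its differences from the same vial's control were -0.09, 0.18, -0.60 and 0.01. At 0.1 µM it fell to 0.03 without replicate 2. At 1 µM it kept its sign in 14 of 17 alternatives and was 0.08 without replicate 3 and 0.04 with the trend on transcript length removed. MT-CYTB was at 0.15 (SE 0.10, edgeR adjusted p = 0.466) at 0.1 µM and 0.01 (SE 0.10, edgeR adjusted p = 0.982) at 1 µM. Its CPM at 1 µM was 5828, 5655, 4749.6 and 4895 against 5343, 4944, 5731 and 4908 in control. MT-ATP8, at 71.98, 59.8, 61.1 and 77.9 CPM in the 12-week controls, was at 52.3, 91.3, 31.0 and 37.9 at 1 µM (-0.35, edgeR adjusted p = 0.774).

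No nuclear member was called at 12 weeks, and the signs of their fitted values were mostly alike. At 0.01 µM, 74 of 82 lay above control (median 0.08). At 0.1 µM, 76 of 82 lay below (median -0.09), and at 1 µM again 76 of 82 (median -0.11), where the medians of all genes tested were 0.00. Summed nuclear CPM was 8467, 9014, 9135 and 9312 in control, 8561, 9233, 9963 and 10244 at 0.01 µM, 8487, 8545, 8588 and 8381 at 0.1 µM, and 8412, 8437, 8509.99 and 8479 at 1 µM. Control replicate 1 lay among the exposed values, and in that vial the median difference was 0.03, -0.002 and 0.01 at 0.01, 0.1 and 1 µM. In vials 2 to 4 it was 0.05, 0.11 and 0.16 at 0.01 µM, -0.08, -0.10 and -0.18 at 0.1 µM, and -0.11, -0.11 and -0.15 at 1 µM. With the trend on transcript length removed, the medians were near 0, as given beside the length values.
At 0.1 µM, 9 nuclear members lay wholly below the controls, where 3.86% of all genes did. In complex I these were NDUFA3, NDUFA6, NDUFA8 and NDUFB4. The others were the membrane anchors SDHC and SDHD of complex II, COX7B, and ATP5F1A and ATP5F1C of complex V. At 1 µM, 7 lay wholly below the controls, where 3.34% of genes did: NDUFB4, NDUFS1, NDUFS4, COX6B1, COX6C, ATP5MC2 and ATP5PB. COX6B1, a complex IV subunit (chr19:35648323-35658782), had the lowest p at 1 µM. It stood at 99.9, 103, 111 and 116 CPM in control and at 96.8, 95.1, 94.8 and 88.7 (log2 difference -0.20, SE 0.06, edgeR adjusted p = 0.252).
The other lowest-p nuclear members were NDUFB4 (-0.21) and NDUFC1 (-0.14) at 1 µM, NDUFB1 (-0.29), NDUFA6 (-0.20) and NDUFA3 (-0.14) at 0.1 µM, and UQCRFS1 (0.16), ATP5PF (0.14) and NDUFS3 (0.20) at 0.01 µM. Their edgeR adjusted p ranged from 0.160 to 0.565.
By complex, medians at 1 µM were -0.10 in complex I, -0.06 in complex II, -0.14 in complex III, -0.13 in complex IV and -0.11 in complex V. At 0.1 µM they were -0.07, -0.10, -0.10, -0.11 and -0.11, and at 0.01 µM 0.08, 0.05, 0.05, 0.12 and 0.08.

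**Figure D5:**
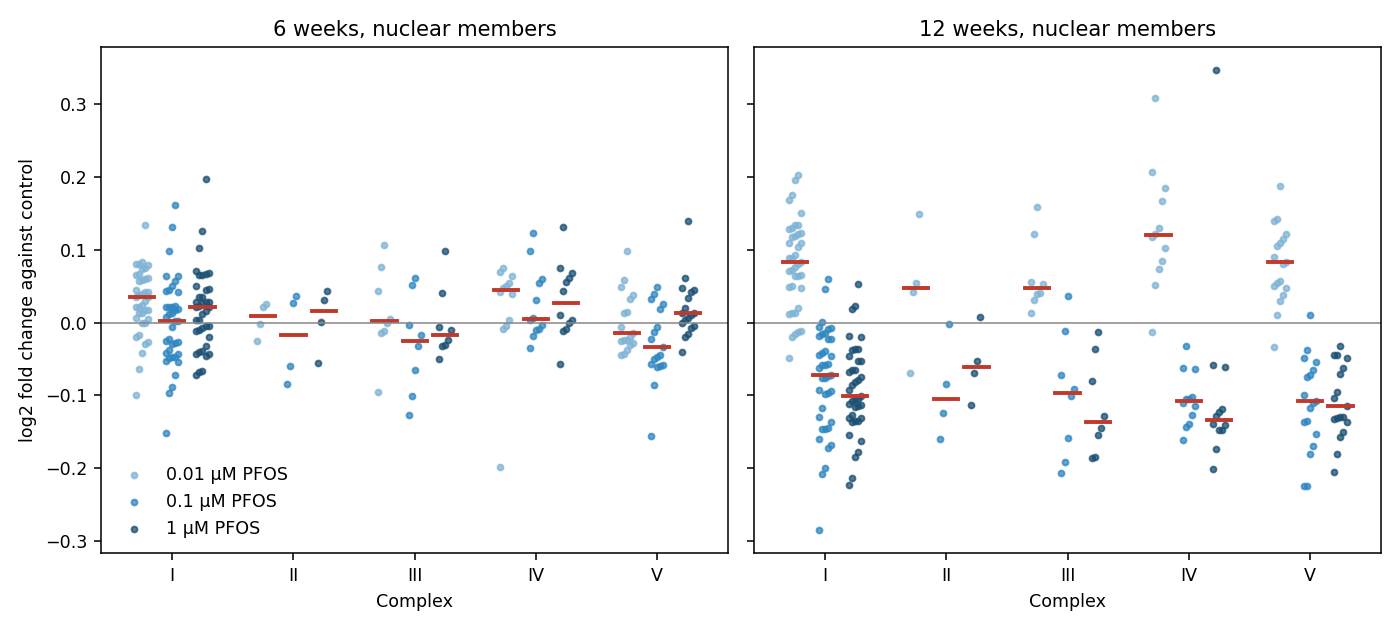
Fitted log2 fold change against control of the tested nuclear members at 6 and 12 weeks, by complex and PFOS concentration; points are genes and red lines medians. ATP5MF-PTCD1 is off the axis and counts in the medians; at 12 weeks 76 of 82 members lie below 0 at 0.1 µM and at 1 µM, and 74 above 0 at 0.01 µM.

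Transcript length and summed histone RNA are given beside the 12-week values. Of the 82 tested nuclear members, 65 (79.3%) were among the shortest 25% of all tested genes by effective length. With the trend of fold change on length removed, the nuclear medians came to 0.03, -0.03 and -0.03 at 0.01, 0.1 and 1 µM. Summed CPM of the 69 listed replication-dependent histone genes, whose RNA lacks a poly(A) tail, was 281 to 339 in all 6-week libraries. At 12 weeks it was 405, 453, 275 and 266 in control, 423 to 472 at 0.01 µM, 408 to 465 at 0.1 µM, and 268, 267, 402 and 440.1 at 1 µM.
Comparing only libraries over 350 histone CPM, the mitochondrial median at 1 µM was -0.16, and under 350 it was 0.08 (2 libraries against 2 in each). The nuclear median at 1 µM was -0.05 over and -0.15 under that value. Over it, replicates 3 and 4 at 1 µM were set against control replicates 1 and 2, and under it the reverse. At 1 µM the histone class and the vial therefore cannot be told apart. For 0.1 µM only the higher class could be compared, with 4 libraries against 2: 0.19 for mitochondrial and -0.04 for nuclear members. At 0.01 µM, again 4 against 2, they were -0.13 and 0.12. No label names a preparation batch, and the part of this split in the results was not tested beyond these values.

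Whether the PFOS difference itself changed between 6 and 12 weeks was tested as an interaction over all 32 libraries. No member was called for 0.01, 0.1 or 1 µM by edgeR, where 0.0%, 0.208% and 0.123% of 12988 genes were. At an unadjusted p under 0.05 by edgeR there were 6, 16 and 24 members, against 7.48%, 14.5% and 12.1% of genes. DESeq2 called 0, 0 and 1, where it called 0.00574% of 17418, 1.96% of 6950 and 1.54% of 4924 genes. That member was MT-ATP8 at 1 µM, with a change in log2 difference of -1.98 (SE 0.46, edgeR adjusted p = 0.0983). For MT-CYTB it was -0.17 (SE 0.12, edgeR adjusted p = 0.535) at 0.1 µM and -0.33 (SE 0.12, edgeR adjusted p = 0.278) at 1 µM. For NDUFB1, an accessory subunit of complex I, it was -0.45 at 0.1 µM (SE 0.12, edgeR adjusted p = 0.0991). Of the 13 mitochondrial members, 1, 2 and 7 had an unadjusted p under 0.05 by edgeR at 0.01, 0.1 and 1 µM. At each concentration 12 of 13 lay below 0, with medians of -0.05, -0.20 and -0.33. These members come from shared precursors and the same libraries, so they are not separate observations. For single mitochondrial members, the PFOS difference was not shown by edgeR to differ between 6 and 12 weeks.

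The last comparison set 12 against 6 weeks within each treatment. Time and any preparation batch cannot be told apart here, and large shares of all genes differed. In controls, 16 of 95 tested members were higher and 1 lower at 12 weeks, where 17.3% of genes were higher and 19.3% lower. At 0.01 µM, 40 were higher and 3 lower (21.4% and 21.3% of genes). At 0.1 µM, 7 were higher and 8 lower (19.7% and 20.6%). At 1 µM, 2 were higher and 13 lower (14.2% and 15.9%). With both genomes pooled, the members' counts of higher genes exceeded the background share only at 0.01 µM. Those of lower genes stood below it at all concentrations. These counts differed between the genomes, however. At 0.01 µM the higher members were 39 of 82 nuclear and 1 of 13 mitochondrial. At 1 µM the lower members were 8 of 82 nuclear and 5 of 13 mitochondrial (38.5%), where 15.9% of genes were lower. The mitochondrial members come from shared precursors and the same libraries, so that share does not count separate observations. Their median log2 change at 1 µM was -0.04, -0.04, -0.40 and -0.53 in vials 1 to 4, and so lay mostly in vials 3 and 4.
SDHA, the flavoprotein of complex II (chr5:218320-268746), was lower at 12 weeks in every treatment. Its CPM was 202, 206, 203 and 202 in 6-week and 184, 175, 194 and 173 in 12-week controls, with no overlap. Its log2 change was -0.16 (SE 0.04, edgeR adjusted p = 0.00111) in controls and -0.25, -0.11 and -0.15 at 0.01, 0.1 and 1 µM. SDHD, a membrane anchor of the same complex, fell at 0.1 µM (-0.24) and 1 µM (-0.19).
NDUFS4, an accessory subunit of the matrix arm of complex I (chr5:53560639-53683338), was higher in controls and at 0.01 and 0.1 µM. Its CPM was 36.5, 37.0, 37.6 and 35.1 in 6-week and 45.0, 42.3, 42.2 and 42.4 in 12-week controls, again with no overlap. The log2 change was 0.23 in controls (SE 0.07, edgeR adjusted p = 0.0117), 0.42 at 0.01 µM (SE 0.07, edgeR adjusted p = 1.64e-05) and 0.19 at 0.1 µM (SE 0.07, edgeR adjusted p = 0.0436).
NDUFC1 and ATP5MC2 were higher in the same 3 treatments, at 0.21, 0.29 and 0.14 and at 0.24, 0.30 and 0.14. COX6C (0.25) and COX7C (0.22) of complex IV and UQCRB (0.21) of complex III were higher in controls. NDUFB1 was lower at 0.1 µM (-0.34) and 1 µM (-0.31). UQCRFS1 was higher at 0.01 µM (0.31) and 0.1 µM (0.21).
Of the mitochondrial members, MT-ATP8 was higher at 12 weeks in controls (1.08, SE 0.33, edgeR adjusted p = 0.0136) and at 0.01 µM (1.07, SE 0.35, edgeR adjusted p = 0.0148), and lower at 1 µM (-0.91, SE 0.31, edgeR adjusted p = 0.0311). MT-COX3 was lower at 0.01 µM (-0.24), 0.1 µM (-0.27) and 1 µM (-0.27), MT-COX1 at 0.01 µM (-0.19) and MT-ND3 at 0.1 µM (-0.34). At 1 µM, MT-ND4L (-0.44), MT-COX2 (-0.31) and MT-CYTB (-0.29) were lower too. The median of the mitochondrial members was 0.06, -0.05, -0.12 and -0.27 in control and at 0.01, 0.1 and 1 µM. The first kept its sign in 12 of 13 alternatives and the second in 11 of 12. By vial, however, the second was 0.12, 0.11, -0.55 and 0.17 in vials 1 to 4, below 0 in vial 3 alone. The 1 µM median was below 0 in every vial, but far from 0 only in vials 3 and 4. At 12 weeks, replicates 3 and 4 at 1 µM had mitochondrial shares of 4.40 and 4.68%, against 5.75 and 5.52% in replicates 1 and 2. Their summed histone CPM was 402 and 440, against 268 and 267. The part of this split in the 1 µM values was not tested.
Among regulators of the nuclear subunits, 5 of 8 tested passed in controls, where 36.6% of all genes tested did. NRF1 (0.28), GABPA (0.20), GABPB1 (0.27) and PPRC1 (0.20) were higher and PPARGC1A, a coactivator of mitochondrial biogenesis, was lower (-0.67). In the RNA handling list 5 of 32 tested were higher and 6 lower, shares near those of all genes in controls (17.3% and 19.3%). Among them were POLRMT, the mitochondrial RNA polymerase (0.22), TFAM, which packages mitochondrial DNA and starts its transcription (0.16), and POLG, its DNA polymerase (-0.21).
Of 47 assembly factors 5 were higher and 2 lower, again no more than the shares of all genes, led by NDUFAF3 (0.35), a complex I factor, and COX14 (-0.44), a complex IV factor.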

How the data were processed

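Stranded poly(A)-selected RNA was sequenced on DNBSEQ, and reads were mapped to GRCh38.p14 or its genes and quantified by the authors (submitters' processing notes: HISAT2 2.0.4, Bowtie2 2.2.5, RSEM 1.2.8). The deposited gene tables hold RSEM expected counts, which were rounded to whole numbers for testing, and the authors' TPM, used for levels only. Deposited FPKM and normalized values were not used. Members and gene lists were chosen with earlier results of these data known. Of the nuclear members, 12 are placed on alternate scaffolds in the tables, so RefSeq coordinates of the same build are given.

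Counts were filtered with filterByExpr, normalized by TMM and tested with edgeR 4.0.16 (quasi-likelihood, robust; R 4.3.3) on the 16 libraries of a time, or all 32 for time and interaction terms. P-values were Benjamini-Hochberg adjusted over all genes tested, and a gene was called at an adjusted p at or under 0.05. Genes were named by rule: all mitochondrial members, members called in any comparison (at most the 6 largest in each direction), the 3 nuclear members of lowest p per PFOS comparison, the highest and lowest TPM per complex, and paralog and read-through sets. SEs are those of the fit. Single mitochondrial members also had an exact two-sided permutation test of log2(CPM + 1). Alternatives were DESeq2 1.42.0, RLE scaling, other filters, 8 or 32 libraries in 1 fit, mitochondrial counts left out of library sizes, a length trend removed, the vial as a replicate block, and each replicate left out. The script was tested on simulated data. Replicate numbers were taken to pair samples because the labels say that each vial's flask was divided into the groups. That equal numbers in different groups are the same vial was assumed. Mean correlations of same-numbered libraries' deviations were low, at 0.056 to 0.104 at 6 weeks and -0.133 to 0.16 at 12 weeks. Replicates of a group differed beyond sampling noise in all 48 pairs (chi-square per degree of freedom 2.35 to 16.9). Totals of 17907057 to 18553350 counts make depth alike between libraries. Tables were read with Python 3.11.15.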

Additional observations from a re-analysis of the deposited data

Results flagged for a closer look

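In 120 groups of 4 libraries (the mitochondrial share, the nuclear sum and the CPM of each mitochondrial member), 9 held a library far from the other 3 by Dixon's criterion, where chance gives about 1 in 20. At 6 weeks these were MT-ND4 in control replicate 1 (6191 CPM, others 6840.2 to 6968), MT-ATP8 in control replicate 2 (50.4, others 25.6 to 26.2), MT-COX1 at 0.01 µM in replicate 3 (13329, others 11389 to 11589.9) and MT-ND5 at 0.1 µM in replicate 4 (5297, others 4116 to 4244). At 1 µM and 6 weeks they were MT-ND4L in replicate 2 (822, others 885 to 895), MT-COX2 in replicate 4 (8710.03, others 7885 to 7930.3) and MT-COX3 in replicate 4 (5059, others 4594 to 4649). At 12 weeks they were MT-ND2 in control replicate 2 (3252, others 3858 to 3939) and MT-COX2 at 1 µM in replicate 2 (7262, others 6238 to 6357).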

How the results depend on the processing

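The mitochondrial medians at 0.1 and 1 µM after 6 weeks stayed above 0 in all 14 alternatives (0.26 to 0.34 and 0.26 to 0.35). Of the nuclear medians, removing the length trend moved 2 beyond the spread between vials: 1 µM against control at 12 weeks (-0.0259) and 1 µM, 12 against 6 weeks (-0.0344). Counts of called members were less stable. At 6 weeks, 0.1 µM gave 7 by DESeq2 on 16 libraries, 10 by DESeq2 and 6 by edgeR on 8 libraries, 0 by edgeR on 32 and 1 with no filter on low counts. At 1 µM they were 7, 10 and 0 by DESeq2 on 16, DESeq2 on 8 and edgeR on 32 libraries. With the vial as a replicate block, 4 were called at 0.1 µM and 2 at 1 µM, and no other PFOS call changed. At 12 weeks, 0.1 µM gave 1 by DESeq2 on 8 libraries (MT-ND5) and 1 by edgeR on 32 (UQCR11), and 1 µM gave 2 by DESeq2 (NDUFB4, COX6C) and 1 by edgeR (NDUFB4) on 8. Between times, removing the length trend gave 28 at 0.01 µM and 24 at 0.1 µM, and edgeR on 8 libraries gave 26, 29 and 25 at 0.01, 0.1 and 1 µM. DESeq2 gave 1 for the 1 µM interaction (MT-ATP8). Leaving out 1 vial gave 1 to 2 members at 0.1 µM and 1 to 3 at 1 µM after 6 weeks, 0 to 2 at 0.1 µM after 12 weeks (NDUFA7 and NDUFB1 without vial 1), 7 to 21 in controls between times, and 24 to 51, 6 to 12 and 7 to 13 at 0.01, 0.1 and 1 µM. For the 1 µM interaction it gave 0 to 1 (NDUFB1 without vial 1, MT-ATP8 without vial 2). Comparing libraries on the same side of 350 histone CPM was added after seeing the data. The causes were not tested. Very short messages, the light-strand MT-ND6 and the overlapping mitochondrial genes limit what these counts can resolve.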
